A study of Mus musculus with 6 samples.

Results

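*Scx*, *Mkx*, *Egr1*, *Six2*, *Eya1* and *Eya2*, 6 transcription regulators of the tendon lineage, were measured in healing flexor digitorum longus (FDL) tendons by bulk RNA-seq. The 6 genes were chosen by name as regulators of tenocyte identity, by a rule that uses no measured value, out of 53819 genes listed in the count table, and all 6 were among the 17496 genes with enough counts to test. Each library was made from 1 FDL tendon of the hind paw, cut and sutured at 10 to 12 weeks of age and harvested 28 days after surgery (D28). The DTR group (3 mice) was Scx-Cre+; DTR F/+, in which Cre under *Scx* regulatory sequence removes a stop cassette and switches on the diphtheria toxin receptor in all cells that have ever expressed *Scx*. The WT group (3 mice) was littermates of the genotype Scx-Cre-; DTR F/+, which carry the same floxed receptor allele without Cre. Mice of both groups received 100 ng diphtheria toxin per day on 5 days between D14 and D18, so toxin and surgery were shared, and the groups were set up to differ in the transgene and the depletion. The sample titles place the harvest 28 days after depletion, whereas the study's methods place it 28 days after surgery, as used here. The libraries held between 42744138 and 48854310 counts. The study used male and female mice, and *Xist*, the transcript of the inactive X chromosome, had 49303 counts in WT replicate 2, 53828 in DTR replicate 2 and 54082 in DTR replicate 3, against at most 4 in each of the other libraries. High *Xist* was thus found in 1 of 3 WT and 2 of 3 DTR tendons, and with this class as a covariate in edgeR the log2 fold change of *Eya1* was -0.28 (adjusted p = 0.415) in place of -0.16, and the direction of all 6 regulators was the same.

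Tendon cells arise from limb and axial mesenchyme in which the basic helix-loop-helix (bHLH) factor *Scx* (Scleraxis) is the earliest lineage marker, and *Scx* acts as a dimer with the E proteins to switch on tenomodulin and fibrillar collagens. *Mkx* (Mohawk), a homeobox factor of the TALE class, maintains collagen fibril growth in tendon, and *Egr1*, a zinc finger factor, can be induced rapidly by mechanical load and activates tendon collagen genes. *Six2* encodes a homeodomain protein, and *Eya1* and *Eya2* encode its coactivators, which have a phosphatase domain and no DNA-binding domain of their own. SIX-family and EYA proteins are found in limb connective tissue and are also central regulators of skeletal muscle.

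The tendons expressed tendon markers in every library. The summed counts of 8 tenocyte markers made up 1.42%, 1.63% and 1.74% of the WT libraries and 1.89%, 1.91% and 1.91% of the DTR libraries. *Thbs4* was the most abundant and had the highest fitted log2 fold change of the 8 (0.65), and the sum without it was not computed. Of the 8 markers, 4 had all DTR tendons above all WT tendons, beside 8.96% of all genes. The fitted log2 fold changes of 2, *Fmod* (-0.17) and *Comp* (-0.18), were below 0. The 6 regulators together made up 0.0369%, 0.0343% and 0.0332% of the WT libraries and 0.0396%, 0.0433% and 0.0449% of the DTR libraries, and without *Egr1*, the most abundant of them, the other 5 made up 0.0200%, 0.0243% and 0.0258% against 0.0233%, 0.0258% and 0.0269%, which overlapped. In whole tendon, more or fewer cells of a type and more or less RNA per cell cannot be told apart. Markers of other tissues also differed between libraries. A list of 20 skeletal muscle fibre genes, led by *Myh1*, took 2.80%, 2.54% and 2.03% of the WT counts and 0.347%, 2.48% and 0.654% of the DTR counts. All 20 muscle genes had a fitted fold change below 0, with a median log2 fold change of -1.19, and none was called. A list of 13 keratinocyte genes, led by *Krt10*, took 0.318% and 0.197% of WT replicates 1 and 2 and between 0.00129% and 0.0300% of the other libraries.

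The abundance of these genes was compared as CPM (counts scaled to a fixed library total) per kilobase of exon, with exon lengths from the GENCODE vM21 annotation of GRCm38. *Scx* had 33.2 ± 5.70 and *Egr1* 32.1 ± 10.2 (mean ± SD, n = 6 libraries), followed by *Mkx* with 24.4 ± 2.96, *Six2* with 12.7 ± 1.73, *Eya2* with 7.36 ± 0.846 and *Eya1* with 3.60 ± 0.505. The levels of *Scx* and *Egr1* could not be ordered, since *Scx* was the higher in 2 of 6 libraries. *Egr1* exceeded *Mkx* in 4 of 6 libraries, and each lower step, from *Mkx* to *Six2* to *Eya2* to *Eya1*, held in 6 of 6. The order at the top depends on the exon length used, because 1 of the 2 annotated *Scx* transcripts retains the intron. With the spliced, protein-coding *Scx* transcript of 1035 bases in place of 2007 bases, *Scx* had a level of 64.5 ± 11.1 and lay above *Egr1* in 6 of 6 libraries. The step between the EYA genes was smaller with the longest protein-coding transcript of each. *Eya2* then had 8.87 and *Eya1* 6.44, with *Eya2* the higher in 6 of 6 libraries.

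Within the families, the level of *Six2* per length was above those of *Six5* (5.12) and *Six4* (1.08). *Six6* had 0 counts in all 6 libraries and *Six3* had 1 count in WT replicate 1 alone. *Eya2* lay above *Eya3* (6.41) in 5 of 6 libraries. *Eya1* and *Eya4* (3.73) were not separated, with *Eya1* the higher in 3 of 6. *Egr2* (3.16) and *Egr3* (2.02) were low beside *Egr1*, and *Egr4* had at most 2 counts in a library.

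**Figure D1:**
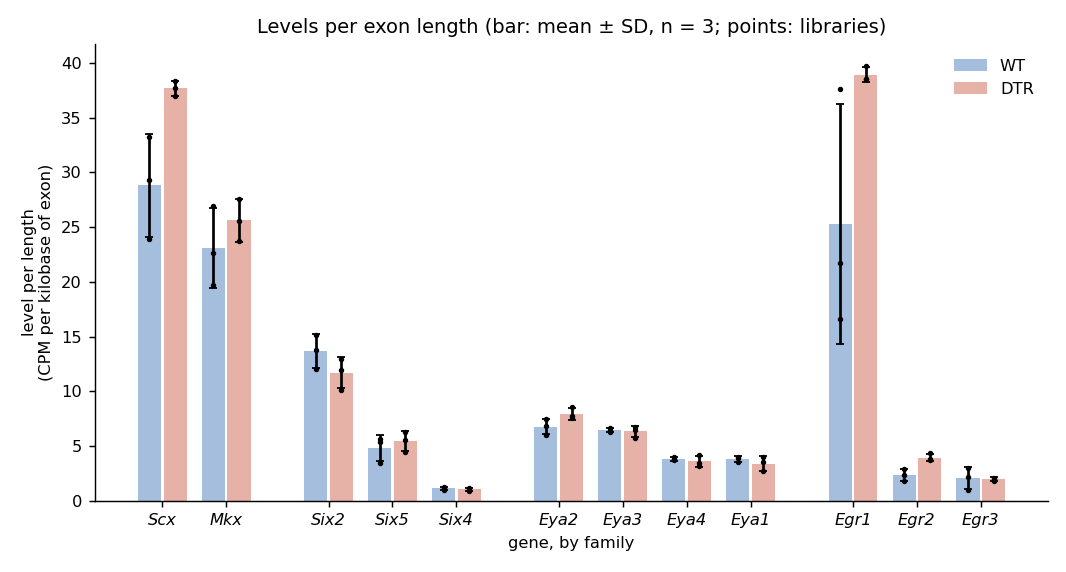
Levels of the regulators and their family members in CPM per kilobase of exon (y axis) for WT (blue) and DTR (red) tendons, with bars at the mean, error bars of 1 SD (n = 3) and a point for each library. *Scx* and *Egr1* were highest with 33.2 and 32.1 over all 6 libraries, and *Six2* and *Eya2* had 12.7 and 7.36.

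The main question was how these regulators differed at D28 between DTR and WT tendons. Depletion was not measured in these tendons. The study lists as a limit that its efficiency could not be quantified, because the mice carried no *Scx* reporter. None of the 6 was called at an adjusted p of 0.05 by edgeR's quasi-likelihood test, which called 0% of all genes, or by DESeq2, which called 2.65% (466 of the 17564 genes to which it gave an adjusted p). An unadjusted edgeR p under 0.05 was reached by 1 of 6, *Scx*, beside 11% of all genes tested. All 3 DTR tendons lay above all 3 WT tendons for 3 of 6 (*Scx*, *Egr1* and *Eya2*), beside 8.96% of all genes, and all 3 lay below for 0 of 6, beside 7.85% of all genes. The median log2 fold change was 0.19 over the 6 genes and 0.01 over all genes tested. With 3 libraries in each group an exact permutation test of 1 gene cannot give a p under 0.10, so none is reported.

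*Scx* had 2203, 2705 and 3066 normalized counts (scaled by edgeR's TMM factors to the mean library size) in WT replicates 1, 2 and 3, and 3478, 3409 and 3534 in DTR replicates 1, 2 and 3. Every DTR tendon was above every WT tendon, and the DTR tendons varied less among themselves than the WT tendons. The means were 2658 ± 433 and 3474 ± 62.4 (SD, n = 3 each), which gave a log2 fold change of 0.39 (standard error 0.12, 95% confidence interval 0.10 to 0.67). The unadjusted p was 0.0141, and the adjusted p was 0.371 by edgeR and 0.143 by DESeq2. The lowest DTR value was 1.11 times the highest WT value, a gap smaller than the coefficient of variation of 16.3% among the WT tendons.

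The *Scx* gene lies at chr15:76457452-76459458 on the plus strand of GRCm38, inside the body of *Bop1*, a ribosome biogenesis gene, which spans chr15:76452989-76477277 on the opposite strand. The annotated exons of *Scx* and *Bop1* share 0 bases. *Bop1* had 2157, 2266 and 2435 normalized counts in WT tendons and 3676, 3008 and 3069 in DTR tendons, again with no overlap. Its log2 fold change was 0.51 (standard error 0.10), with an adjusted p of 0.274 by edgeR and of 0.00888 by DESeq2, so that the host gene was called by DESeq2 where *Scx* was not. Libraries were made with a strand-marking kit, but whether the counting used the strand was not given in the sources used here. Every DTR mouse and no WT mouse carried the Scx-Cre transgene, so its presence and the depletion cannot be told apart in either gene. Whether the transgene holds *Scx* or *Bop1* sequence that was counted was not given in the sources used here, so the DTR counts of both genes could include it.

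*Mkx* had 3711, 4262 and 5074 normalized counts in WT tendons and 4464, 5196 and 4810 in DTR tendons. The groups overlapped, with WT replicate 3 above 2 of the 3 DTR tendons. The log2 fold change was 0.15 (95% confidence interval -0.14 to 0.44, adjusted p = 0.670 by edgeR). It was 0.05 without WT replicate 1 and 0.27 without WT replicate 3. In the annotation, *Mkx* shares 201 exon bases, 4.91% of its exon length, with *AC148004.2*, which has no entry under that symbol in the count table.

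*Egr1* showed the widest spread of the 6 genes among WT tendons. It had 7755, 4480 and 3422 normalized counts in WT replicates 1, 2 and 3, and 7935, 8189 and 7939 in the DTR tendons. WT replicate 1 was just below the DTR tendons and WT replicates 2 and 3 were far below them, and the coefficient of variation was 43.3% in WT and 1.82% in DTR tendons. The groups did not overlap, but the lowest DTR value was only 1.02 times the highest WT value. The log2 fold change of 0.62 had a 95% confidence interval from -0.11 to 1.35 and an adjusted p of 0.492 by edgeR and 0.192 by DESeq2. It was 1.02 without WT replicate 1 and 0.39 without WT replicate 3.

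*Six2* had 1171, 1479 and 1346 normalized counts in WT tendons and 1258, 988 and 1167 in DTR tendons. DTR replicate 2 was the lowest and WT replicate 2 the highest, and the groups overlapped. The log2 fold change was -0.23 (95% confidence interval -0.52 to 0.07, adjusted p = 0.524 by edgeR). It was -0.31 without WT replicate 1 and -0.13 without DTR replicate 2. *Eya1* had 1263, 1444 and 1392 in WT tendons and 960, 1431 and 1269 in DTR tendons, so the groups overlapped and DTR replicate 1 stood lowest. Its log2 fold change was -0.16 (95% confidence interval -0.51 to 0.18, adjusted p = 0.696 by edgeR), and it was -0.02 without DTR replicate 1. *Eya2* had 823, 1016 and 934 in WT tendons and 1163, 1055 and 1026 in DTR tendons. Every DTR tendon was above every WT tendon, but by a margin of only 1.01 between the nearest values, less than the counting error of 3.51% at its lowest count. Its log2 fold change was 0.23 (95% confidence interval -0.03 to 0.48, adjusted p = 0.483 by edgeR). It was 0.15 without WT replicate 1 and 0.30 without WT replicate 2.

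**Figure D2:**
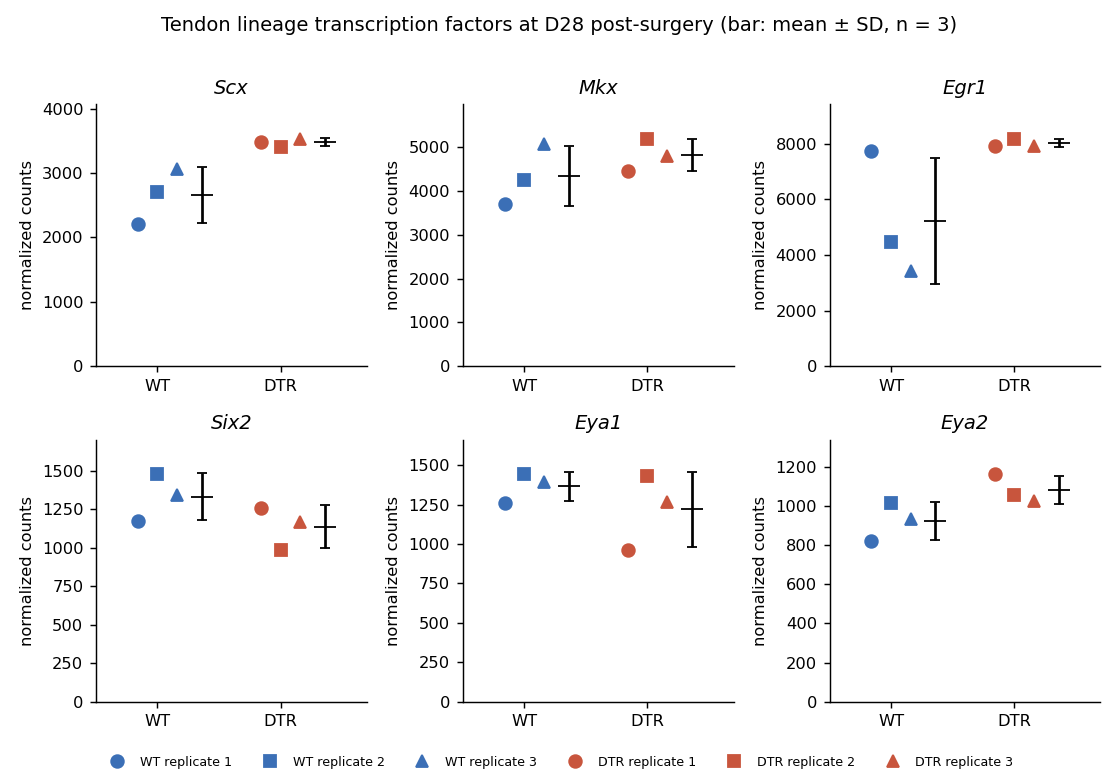
Normalized counts (y axis, from 0) of the 6 regulators in each WT (blue) and DTR (red) tendon, with the replicate number given by the symbol and a black bar at the mean ± SD (n = 3). The DTR values lay above all WT values for *Scx*, *Egr1* and *Eya2* and overlapped them for *Mkx*, *Six2* and *Eya1*.

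The separation of *Egr1* and *Eya2* rests on the scaling between libraries. When the counts were divided by library size alone, 1 of 6 genes, *Scx*, had all DTR tendons above all WT tendons. With the normalized counts deposited by the authors it was again *Scx*, *Egr1* and *Eya2*, and without WT replicate 3 *Mkx* joined these 3. The share of 8.96% of all genes is for the main scaling with all libraries, and no share for these settings is given. With fewer libraries, groups also separate more readily.

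Ratios of 2 genes within a library do not depend on that scaling. Of the 15 ratios among the 6 genes, 5 did not overlap between the genotypes, beside 18.1% of the ratios over all pairs of tested genes whose mean was 50 normalized counts or more. The ratios share genes and were computed after the values of the single genes had been seen, so they are given as a description with no test. *Six2* counts were 1.42, 1.46 and 1.44 times the *Eya2* counts in WT tendons, and 1.08, 0.936 and 1.14 times in DTR tendons. The WT ratio was 1.44 ± 0.0165 and the DTR ratio 1.05 ± 0.104 (SD, n = 3 each). The WT values differed by less than the counting error of the single genes (3.11% for *Six2* and 3.51% for *Eya2* at their lowest counts), so the narrow WT spread is not read further. *Eya1* to *Eya2* was 1.54, 1.42 and 1.49 in WT tendons and 0.825, 1.36 and 1.24 in DTR tendons. The counts of the 2 EYA coactivators were therefore closer to each other in DTR than in WT tendons. The nearest values, 1.42 in WT and 1.36 in DTR tendons, lay close together. The counting error was 3.28% for *Eya1* and 3.51% for *Eya2* at their lowest counts, so that gap is not read further.

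The other 3 ratios without overlap involved *Scx*. *Scx* to *Mkx* was 0.594, 0.635 and 0.604 in WT tendons and 0.779, 0.656 and 0.735 in DTR tendons. *Scx* to *Six2* was 1.88, 1.83 and 2.28 in WT tendons and 2.76, 3.45 and 3.03 in DTR tendons. *Scx* to *Eya1* was 1.74, 1.87 and 2.20 in WT tendons and 3.62, 2.38 and 2.79 in DTR tendons. In each of these ratios *Scx* was the gene that was higher in DTR tendons relative to its partner. The ratio of *Scx* to *Eya2* overlapped, with 2.68, 2.66 and 3.28 against 2.99, 3.23 and 3.44.

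**Figure D3:**
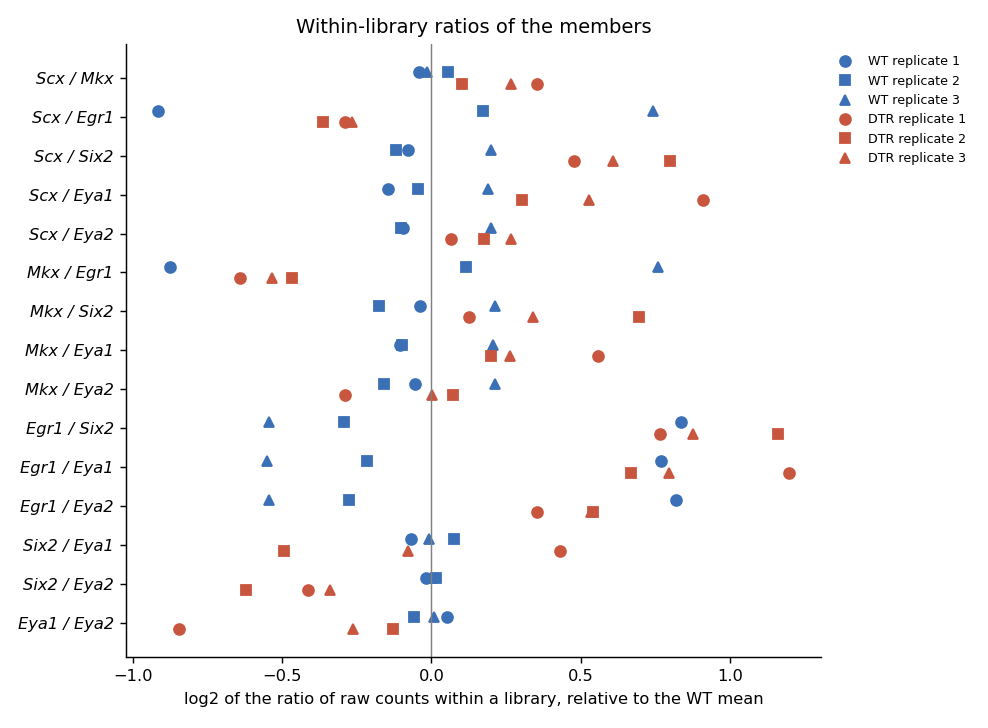
Log2 of the within-library ratio of raw counts for each pair of the 6 regulators, relative to the WT mean (x axis), with WT tendons in blue and DTR tendons in red and the replicate given by the symbol. Of the 15 pairs (y axis), 5 had no overlap, and all DTR values of *Six2* / *Eya2* lay below the WT values.

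The genes that act with each regulator were taken as fixed lists, and edgeR called none of their members. Over all genes tested, 5.52% were higher and 5.45% lower in DTR tendons at an unadjusted edgeR p under 0.05, and DESeq2 called 1.53% lower. In the SIX-EYA-DACH list, 1 of 7 tested genes was lower at an unadjusted p under 0.05 and 0 were higher, and the median log2 fold change was -0.08. That gene was *Dach1*, a corepressor of the network, with 143, 170 and 133 normalized counts in WT tendons and 74, 84 and 82 in DTR tendons. Every DTR value was below every WT value, with a log2 fold change of -0.89 (standard error 0.21), and *Dach1* was called lower by DESeq2. *Dach2* had 76, 134 and 108 against 113, 174 and 170, a log2 fold change of 0.52 with overlapping groups. Fitted log2 fold changes were -0.12 for *Six4*, 0.18 for *Six5*, -0.03 for *Eya3* and -0.08 for *Eya4*.

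Among 10 partners and inhibitors of bHLH factors, 1 was higher and 3 were lower at an unadjusted p under 0.05, beside 5.52% and 5.45% of all genes, and the median log2 fold change was -0.12. The 3 lower genes were inhibitors of the ID family, which bind E proteins and keep them from bHLH partners such as Scx. *Id3* had 2547, 3885 and 4151 normalized counts in WT tendons and 2116, 2602 and 2197 in DTR tendons, a log2 fold change of -0.61 (standard error 0.19) that DESeq2 called. DTR replicate 2 was above WT replicate 1, so the groups overlapped. The log2 fold change was -0.66 for *Id1*, -0.26 for *Id2* and -0.19 for *Id4*, of which only *Id2* had no overlap and *Id4* did not reach an unadjusted p of 0.05. Among WT tendons, *Id1* and *Id3* were lowest in replicate 1 and *Id2* was highest there. Summed adipocyte genes without *Fabp4* and summed Schwann cell genes, given in the closing section, were also lowest there among WT tendons. Their part in the ID values was not tested. The E proteins had log2 fold changes of 0.18 for *Tcf3*, 0.12 for *Tcf4* and 0.15 for *Tcf12*, and of these *Tcf12* had all DTR tendons above all WT tendons. *Twist1*, a bHLH factor of mesenchyme, reached an unadjusted p of 0.0494 in edgeR with a log2 fold change of 0.33, and *Twist2* had -0.51 and *Hes1* -0.06.

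**Figure D4:**
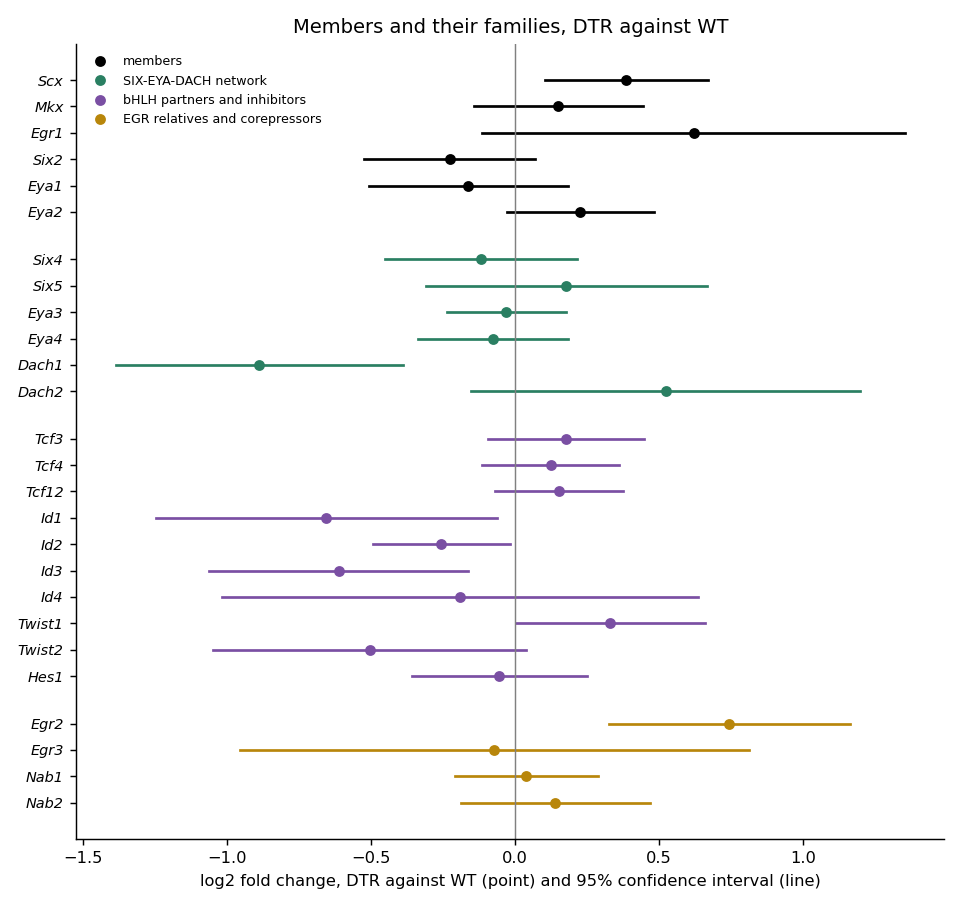
Log2 fold change of DTR against WT (x axis, points) with its 95% confidence interval (lines) for the 6 regulators and for the genes named here of the SIX-EYA-DACH, bHLH and EGR lists (y axis). The intervals of *Scx* (0.10 to 0.67), *Twist1* and *Egr2* lay above 0, and those of *Dach1*, *Id1*, *Id2* and *Id3* lay below it.

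*Egr2*, the closest relative of *Egr1* in this list, had 448, 369 and 288 normalized counts in WT tendons and 582, 680 and 590 in DTR tendons. All DTR tendons were above all WT tendons, the log2 fold change was 0.74 (standard error 0.18), and *Egr2* was called higher by DESeq2. *Egr3* had 607, 446 and 203 in WT tendons and 358, 407 and 430 in DTR tendons, with a log2 fold change of -0.07. The corepressors of EGR factors had log2 fold changes of 0.04 for *Nab1* and 0.14 for *Nab2*.

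*Egr1* is an immediate-early gene, a class whose transcripts can appear within minutes of mechanical, growth factor or handling stimuli, and the order of the WT tendons in *Egr1* was compared with that of *Egr2*, *Egr3* and 23 further immediate-early genes. Of these 25 genes, 22 were higher in WT replicate 1 than in WT replicate 3, beside 50% of all genes tested, and 15 had the full order of *Egr1* (WT replicate 1 highest, then 2, then 3), beside 21.3% of all genes. WT replicate 3 was the lowest WT tendon for 19 of the 25, beside 36.5% of all genes, and the lowest of all 6 tendons for 16, beside 13.5%. The comparison was made after the *Egr1* values had been seen and is a description of these tendons. Over WT replicates 1, 2 and 3, keratinocyte genes (0.318%, 0.197% and 0.00157%) and muscle fibre genes (2.80%, 2.54% and 2.03%) fell in the same order. Tenocyte genes (1.42%, 1.63% and 1.74%) rose in that order. Endothelial, adipocyte, cartilage and bone, and sheath fibroblast genes rose too, as did *Scx* (2203, 2705 and 3066 normalized counts) and *Mkx* (3711, 4262 and 5074). The part of tissue content in these orders was not tested. *Fos* had 3466, 2451 and 1406 normalized counts in WT replicates 1, 2 and 3 and 2578, 3887 and 3622 in DTR tendons, a log2 fold change of 0.46 with overlapping groups. Of the 23 further genes, 2 had all DTR tendons above and 2 had all DTR tendons below the WT tendons, beside 8.96% and 7.85% of all genes, with a median log2 fold change of 0.10. *Ier3* had the highest log2 fold change in that list, 0.65, and was called by DESeq2. *Nr4a3* and *Klf4* had the lowest, -0.45 and -0.30.

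**Figure D5:**
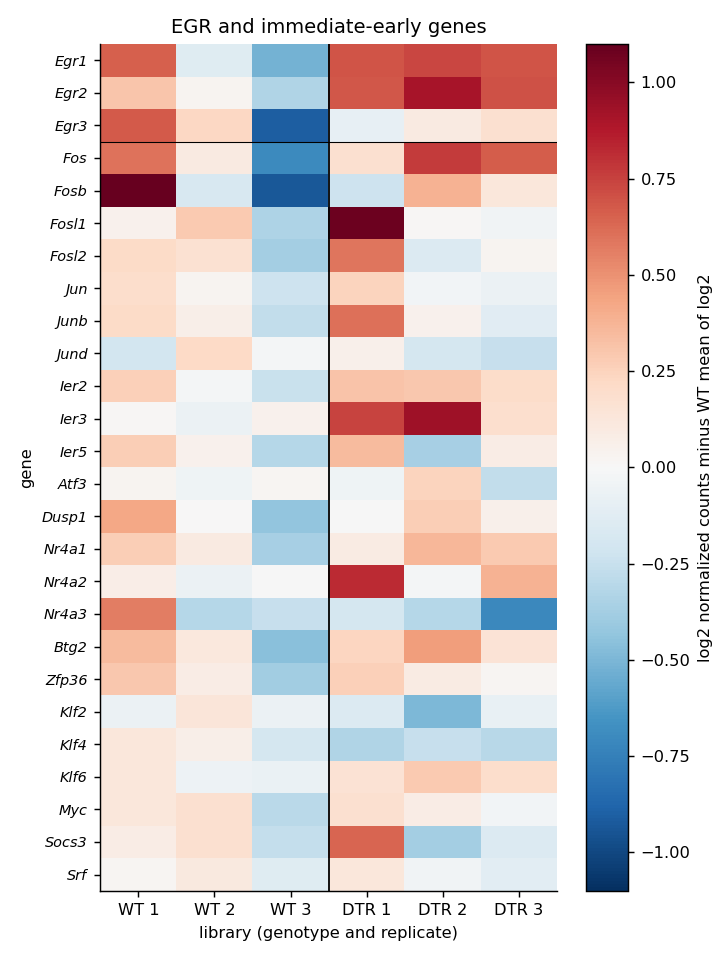
Log2 normalized counts minus the WT mean of log2 (colour scale) for 26 EGR and immediate-early genes (y axis) in the 6 tendons (x axis, WT left of the line and DTR right of it). WT replicate 3 was the lowest tendon for 17 genes, *Egr1* among them, and *Egr1* and *Egr2* were high in all 3 DTR tendons.

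SIX-family and EYA genes are also expressed in muscle, and the amount of muscle transcript differed most among the DTR tendons. DTR replicate 1, with the lowest muscle share (0.347%), was the lowest of the 6 tendons for *Eya1*, *Six4* and *Eya4*. *Six4* had 564, 613 and 505 normalized counts in WT tendons and 458, 593 and 499 in DTR tendons, so the 2 DTR tendons with the least muscle transcript had the lowest *Six4*. Other genes of these families did not follow this order. *Eya2* and *Eya3* were highest of the 6 tendons in DTR replicate 1, with 1163 and 1755 normalized counts, *Six5* had 769 there, above 2 of the 3 WT tendons, and *Six2* was lowest in DTR replicate 2, whose muscle share of 2.48% was in the range of the WT tendons. With the mean level of the muscle list as a covariate in edgeR, the log2 fold change of *Eya1* was 0.08 (adjusted p = 0.933), that of *Six2* was -0.43 (adjusted p = 0.709) and that of *Scx* was 0.33 (adjusted p = 0.781). The unadjusted edgeR p was then 0.0758 for *Scx* and 0.0187 for *Six2*, so *Six2* and not *Scx* was under 0.05. In that fit, 1129 of 17496 genes had an unadjusted p under 0.05 and 0 genes were called. Satellite cell and regenerating muscle genes, led by *Myh8*, took 0.0106%, 0.0132% and 0.0112% of WT counts and 0.00647%, 0.0292% and 0.0221% of DTR counts.

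In a list of tendon matrix genes, 6 of 15 had a higher value at an unadjusted p under 0.05 and 0 a lower one, beside 5.52% and 5.45% of all genes. The median log2 fold change was 0.32. Regulation of these genes by the 6 factors was not tested. The same 15 genes took 6.99%, 7.30% and 8.02% of WT counts and 10.3%, 7.89% and 9.24% of DTR counts. The groups overlapped, and the 2 DTR tendons with the highest matrix shares were those with the lowest muscle shares (0.347% and 0.654%), whereas DTR replicate 2, with a muscle share of 2.48%, lay within the WT range. *Col5a1*, a collagen that starts fibrils, had 52669, 58892 and 59152 normalized counts in WT tendons and 118022, 64221 and 87784 in DTR tendons (log2 fold change 0.66). *Thbs4*, a thrombospondin of the tendon matrix, had 244223, 245827 and 270018 against 445846, 386123 and 357538 (log2 fold change 0.65). Both had no overlap and were called by DESeq2. *Col5a1* was likewise lowest among the DTR tendons in replicate 2, and *Thbs4* was lowest in replicate 3. The part of muscle transcript in these differences was not tested. *Comp* (-0.18) and *Fmod* (-0.17) had the lowest log2 fold changes of the list, and *Tnmd*, a direct *Scx* target, had 50544, 58650 and 76088 in WT tendons and 60397, 92273 and 76045 in DTR tendons, which overlapped.

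In the TGF-beta list, which acts upstream of *Scx*, 1 of 12 genes was higher and 0 were lower at an unadjusted p under 0.05, beside 5.52% and 5.45% of all genes, and the median log2 fold change was 0.07. That gene was the type II receptor *Tgfbr2*, with 23346, 23147 and 21184 normalized counts in WT tendons and 28064, 26508 and 26634 in DTR tendons (log2 fold change 0.26). *Skil*, a SMAD corepressor, had 0.25, and *Smad3* and *Smad7* had -0.11 and -0.07. Of 16 tested TALE homeobox relatives of *Mkx*, 0 reached an unadjusted p of 0.05 in edgeR and 0 were called by edgeR or DESeq2, and the median log2 fold change was 0.10. Among those whose mean was 50 normalized counts or more, the highest were *Tgif2* (0.60) and *Pbx3* (0.17) and the lowest *Irx3* (-0.44) and *Pknox2* (-0.43).

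Of 21 other limb and skeletal transcription factors, 2 were higher and 2 lower at an unadjusted p under 0.05, again beside 5.52% and 5.45% of all genes, with a median log2 fold change of 0.07. *Nfatc2*, a calcineurin-responsive factor, had 1907, 2040 and 2013 normalized counts in WT tendons and 1502, 1493 and 1532 in DTR tendons (log2 fold change -0.40), and it was called lower by DESeq2. *Sox6*, a cartilage and muscle fibre factor, had 1041, 962 and 1094 in WT tendons and 554, 891 and 537 in DTR tendons (log2 fold change -0.64). The 2 DTR tendons with the lowest *Sox6* also had the lowest muscle shares, and the part of muscle transcript in this difference was not tested. *Osr2*, an odd-skipped factor of limb connective tissue, had 1263, 1523 and 1868 in WT tendons and 1949, 2281 and 2371 in DTR tendons (log2 fold change 0.50), and *Hoxd11* had a log2 fold change of 0.81.

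The genes with the most similar pattern over the 6 tendons were found for each regulator as the smallest root mean square difference of centred log2 values among 14409 genes. They are a description of 6 libraries that share the same differences in tissue content. For *Scx* they were *Kdelr2*, *Wasf1* and *Scrn1*, with differences of 0.0446, 0.0548 and 0.0639 on the log2 scale beside a median of 0.284 over all genes. *Kdelr2*, a receptor that returns proteins to the endoplasmic reticulum, had 6308, 7058 and 8723 normalized counts in WT tendons and 9445, 9470 and 9729 in DTR tendons, the same order of groups as *Scx*. For *Mkx* they were *Cryzl1*, *Pigbos1* and *Akr1e1*, with 0.0246, 0.0247 and 0.0307. For *Egr1* they were *Ticrr*, *Egr2* and *Tm4sf19*, with 0.135, 0.188 and 0.191 beside a median of 0.519, so *Egr2* was the second most similar gene. For *Six2* they were *Sema5a*, *Caskin2* and *Fignl2*, with 0.0345, 0.0367 and 0.0559. For *Eya1* they were *Cyb5r1*, *Lyrm7* and *Polg2*, with 0.0417, 0.0464 and 0.0478. For *Eya2* they were *Osr1*, *Wdr19* and *Txnl4b*, with 0.0379, 0.0390 and 0.0407. *Osr1*, the odd-skipped relative of *Osr2*, had 439, 558 and 538 normalized counts in WT tendons and 660, 579 and 584 in DTR tendons. The 6 regulators were not each other's nearest genes. Among the 14409 genes ordered by their likeness to *Scx*, *Eya2* ranked 435 and *Mkx* 445.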

How the data were processed

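The authors prepared stranded mRNA libraries from 200 ng total RNA of 1 tendon each, cleaned the reads (FastP) and used featureCounts to obtain whole-number counts per gene, which were deposited unnormalized. A second deposited table holds a signal, normalized counts, each column of which equalled the counts divided by the DESeq2 size factor (0.973 to 1.06), per the labels from DESeq2 1.22.1. Aligner, genome build, annotation and strand setting were not given in the sources used here.

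The deposited counts were fitted with edgeR 4.0.16 in R 4.3.3 (TMM, filterByExpr, robust quasi-likelihood fit with genotype as the single term), with Benjamini-Hochberg adjustment over 17496 genes and a threshold of 0.05. Standard errors were obtained from each log2 fold change and its F statistic. DESeq2 1.42.0 and limma 3.58.1 served as alternatives. The code was tested on simulated data. Libraries held 42744138 to 48854310 counts, so the counting error of the 6 genes was at most 3.51% and 3 tendons a group limited the precision. Replicates differed by 36.6 to 190 chi-square per degree of freedom, and none was counted as a duplicate.

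The rule for the members uses no measured value, but the members and lists were chosen with earlier results of these data known. Named genes were the 6 members, tested genes of the SIX-EYA-DACH, bHLH and EGR lists, in every other network list genes called and the 2 highest and 2 lowest fold changes at a mean of at least 50 normalized counts, genes overlapping a member, and the 3 most similar genes of each member. *Tnmd*, *Xist* and the leading marker genes were named outside this rule after their values were seen. Gene positions and lengths came from GENCODE vM21 (GRCm38), which held 49948 of the 53819 symbols. The ratios, the immediate-early orders, the *Xist* covariate, the coding transcript length and the overlap counts under other scalings were added after the data were seen. The alternatives were DESeq2, limma-voom with library quality weights, limma on log2(deposited normalized count + 1), RLE factors, library size alone, no low-count filter, a filter of 10 counts in all libraries, a replicate block, leaving out 1 library at a time, the muscle level as a covariate, removal of the muscle list, and transcript length in place of exon length. Other marker lists (macrophage, endothelial, Schwann, adipocyte, cartilage and bone, smooth muscle, sheath fibroblast) were summed per library and are given in the closing section. Results of a few genes are not reported here.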

Additional observations from a re-analysis of the deposited data

How the results depend on the processing

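No member passed an adjusted p of 0.05 under any of 17 alternatives, and the lowest adjusted p was 0.143 (*Scx*, DESeq2). The direction of all 6 members was the same under every alternative except *Eya1* with the muscle covariate (0.076 in place of -0.16), and the cause was not tested. Genes called numbered 0 with edgeR, 466 with DESeq2, 83 without a filter on low counts and 0 to 544 when each library was left out (544 without DTR replicate 2, which leaves DTR tendons with muscle shares of 0.347% and 0.654%; the cause was not tested). edgeR gave 1918 genes an unadjusted p under 0.05. Genes called in the network lists numbered 0 with edgeR, 7 with DESeq2 and 0 to 2 with a library left out (*Col5a1* and *Sox6*, without DTR replicate 2). The DESeq2 calls were 1 of 7 tested SIX-EYA-DACH genes, 1 of 10 bHLH, 1 of 4 EGR and 1 of 23 immediate-early genes. Further calls were 2 of 15 matrix genes and 1 of 21 other transcription factors, with 0 of 16 TALE and 0 of 12 TGF-beta genes. Over all genes, DESeq2 called 2.65%, and edgeR without DTR replicate 2 called 544 of 17998. Leaving out each library, the log2 fold change ranged from 0.27 to 0.50 for *Scx*, 0.05 to 0.27 for *Mkx*, 0.39 to 1.02 for *Egr1*, -0.31 to -0.13 for *Six2*, -0.29 to -0.02 for *Eya1* and 0.15 to 0.30 for *Eya2*. The members with all DTR above all WT numbered 1 by library size alone, and 3 to 4 with a library left out. The 8.96% of all genes is for the main scaling with all libraries, and no share for these settings is given. With the longest transcript, and equally with the longest protein-coding transcript, the level per length was 6.44 for *Eya1*, 8.87 for *Eya2* and 27.3 for *Mkx*, and with the latter 64.5 for *Scx*. No pairing of the samples by replicate number was seen (correlations of same-numbered deviations -0.188, -0.149 and -0.684). With 3 libraries a group these correlations cannot exclude a pairing. With the replicate block 1 gene was called and no member (*Scx* 0.40, *Egr1* 0.71).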

Other observations

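The summed share of counts of other cell type markers was set beside the 6 regulators as values. Macrophage genes, led by *Lyz2*, took 0.470%, 0.382% and 0.450% of the WT libraries and 0.437%, 0.458% and 0.418% of the DTR libraries. Endothelial genes, led by *Pecam1*, took 0.0598%, 0.0715% and 0.0769% against 0.0597%, 0.0623% and 0.0697%. The 7 Schwann cell genes given here, led by *Mbp*, took 0.0179%, 0.0329% and 0.0276% against 0.0111%, 0.0150% and 0.0208%, which overlapped, and DESeq2 called 3 of them lower (*Mbp*, *Prx* and *Ncmap*), beside 1.53% of all genes. Adipocyte genes, led by *Fabp4*, took 0.0112%, 0.0149% and 0.0205% against 0.00824%, 0.0142% and 0.0107%. Without *Fabp4*, the adipocyte genes took 0.00120%, 0.00252% and 0.00364% against 0.000221%, 0.000678% and 0.000339%, which did not overlap, and DESeq2 called 4 of 6 lower, beside 1.53% of all genes. Smooth muscle and pericyte genes, led by *Rgs5*, took 0.179%, 0.164% and 0.251% against 0.168%, 0.142% and 0.170%, and sheath and progenitor fibroblast genes, led by *Prg4*, took 0.384%, 0.412% and 0.541% against 0.408%, 0.435% and 0.409%. Cartilage and bone genes, led by *Acan*, took 0.0174%, 0.0185% and 0.0253% against 0.0266%, 0.0136% and 0.0270%. Their part in the values of the 6 regulators was not tested.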
